A study of Rattus norvegicus with 12 samples.

Results

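The circadian clock genes described here are 10 genes of the molecular clock, chosen by name: Bmal1, Clock, Npas2, Per1, Per2, Per3, Nr1d1, Nr1d2, Dbp and Tef. They were taken from 14217 genes that the array annotation pairs with probe sets of a single symbol, and had 19 of the 31042 probe sets without controls. Male Sprague-Dawley rats received streptozotocin, a toxin of the pancreatic beta cell, at 65 mg/kg, or citrate buffer alone at 8 weeks of age. After 10 further weeks the left anterior descending coronary artery was tied without reperfusion, or a sham operation was done. Diabetic (streptozotocin) and non-diabetic (buffer) rats each gave a sham array and 5 arrays after ligation (day 1, 7, 14, 28 or 56), all from the remote zone of the left ventricular free wall. Each of the 12 arrays held the pooled RNA of 3 rats, so a condition at a time point had 1 sample. Ages in the labels were 18 to 22 weeks up to day 28, and at day 56 they were 26 weeks for the diabetic and 22 weeks for the non-diabetic pool. For the hour of day at which hearts were taken, and the time from sham operation to sacrifice, no value is given in the sources used here.

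The clock is a feedback loop in which Bmal1, paired with Clock or Npas2, switches on genes through E-box sequences. Among these genes are the Per repressors, the nuclear receptors Nr1d1 and Nr1d2 that repress Bmal1 in turn, and the output factors Dbp and Tef. In rodent heart the RNA of Bmal1 and that of Dbp and Nr1d1 peak at opposite times of day. The genes are grouped here by role, into an activator arm (Bmal1, Clock, Npas2) and a repressor and output arm (the other 7 genes). Genes of an arm are not taken to peak at the same hour.

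Promoters are printed where a short clock motif was found, since clock factors are known to act through such motifs. Each runs from 250 bases before to 50 after a RefSeq start of the gene, on build GRCr8. It is read 5′ to 3′ on the strand of the gene, with the motif in capitals. All 10 genes matched, with 12 promoters. The E-box was searched as CACGTG, the D-box as TTATGTAA or TTACGTAA and the core of the Nr1d and Ror element as AGGTCA, on both strands. The E-box stood in promoters of Nr1d1 (chr10:84229405-84229704, minus strand) and Tef (chr7:115206577-115206876, plus strand), the D-box in Per2 (chr9:99496944-99497243, minus strand), and AGGTCA in Bmal1 (chr1:176766078-176766377, plus strand) and Nr1d2 (chr15:9954784-9955083, plus strand). Nr1d1 had 2 promoters, and the other one (chr10:84231763-84232062, minus strand) held none of these motifs. Of all 33469 promoters in the table, 6.42% held the E-box, 1.01% the D-box and 16.2% the AGGTCA core.
Bmal1: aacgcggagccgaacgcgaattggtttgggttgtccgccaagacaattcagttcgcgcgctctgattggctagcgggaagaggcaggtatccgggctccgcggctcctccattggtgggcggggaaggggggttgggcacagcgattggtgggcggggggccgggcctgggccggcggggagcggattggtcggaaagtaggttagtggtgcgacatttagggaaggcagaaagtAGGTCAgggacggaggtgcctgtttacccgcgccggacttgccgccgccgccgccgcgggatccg
Nr1d1: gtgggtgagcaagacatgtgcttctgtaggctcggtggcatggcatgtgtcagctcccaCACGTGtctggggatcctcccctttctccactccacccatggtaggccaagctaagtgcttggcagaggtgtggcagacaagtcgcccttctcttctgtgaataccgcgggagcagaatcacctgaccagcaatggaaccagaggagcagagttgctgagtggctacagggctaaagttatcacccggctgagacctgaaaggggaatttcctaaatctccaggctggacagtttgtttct
Tef: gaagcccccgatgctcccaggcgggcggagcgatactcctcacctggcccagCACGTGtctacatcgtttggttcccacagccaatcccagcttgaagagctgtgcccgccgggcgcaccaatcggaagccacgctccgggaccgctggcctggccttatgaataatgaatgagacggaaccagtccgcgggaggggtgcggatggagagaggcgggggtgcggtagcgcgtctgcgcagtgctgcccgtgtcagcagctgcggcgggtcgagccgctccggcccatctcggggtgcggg
Per2: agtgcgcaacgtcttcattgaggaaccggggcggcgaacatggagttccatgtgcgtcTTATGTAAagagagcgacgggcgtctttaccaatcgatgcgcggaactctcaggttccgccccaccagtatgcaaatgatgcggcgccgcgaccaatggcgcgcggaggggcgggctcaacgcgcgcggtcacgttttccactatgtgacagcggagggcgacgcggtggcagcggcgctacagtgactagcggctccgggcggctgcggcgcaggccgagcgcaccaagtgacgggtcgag
Nr1d2: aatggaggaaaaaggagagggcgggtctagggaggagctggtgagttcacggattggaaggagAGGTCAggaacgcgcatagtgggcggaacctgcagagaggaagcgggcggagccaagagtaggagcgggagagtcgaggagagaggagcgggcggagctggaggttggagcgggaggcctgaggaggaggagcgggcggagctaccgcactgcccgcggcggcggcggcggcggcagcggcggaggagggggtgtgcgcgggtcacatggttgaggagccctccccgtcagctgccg
A match describes these letters in this window only.

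Values are log2 of the deposited intensity plus 16, and a level is read only against the same probe set on other arrays. A gene is represented by its brightest probe set, and probe sets under a mean of 5.20, the 40th percentile, were left out of tests. All 10 genes passed, with 15 of their 19 probe sets, and Npas2 at a mean of 5.21 lay just inside. The tissue carried heart muscle markers, with 7 of 8 listed cardiomyocyte genes on the array and all 7 kept. Their summed intensity was 30902 to 43030 on diabetic and 36962 to 41959 on non-diabetic arrays. The difference between 3′ and 5′ beta-actin probes, a sign of RNA integrity, was 0.975 to 0.994 on the 4 arrays of day 1 and day 7, against 0.365 to 0.586 on the other 8. The same difference for GAPDH probes did not show this split. It was 0.316 to 0.359 on those 4 arrays, inside the 0.113 to 0.477 of the other 8. In a tissue sample, fewer cells of a type and less RNA per cell cannot be told apart.

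No clock gene passed an adjusted p under 0.05 for diabetes (limma, adjusted over 18625 probe sets), where 0.376% of all probe sets did. The sign of the difference between diabetic and non-diabetic arrays turned with the time point in 9 of the 10 genes. No share over all probe sets is set beside this count, so it is not read as a trait of the clock genes. In the sham pair Bmal1, the partner of both Clock and Npas2, differed by -1.98 (diabetic minus non-diabetic), while Dbp differed by 2.36. At day 14 both signs were the other way, with differences of 1.51 for Bmal1 and -2.31 for Dbp.

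**Figure D1:**
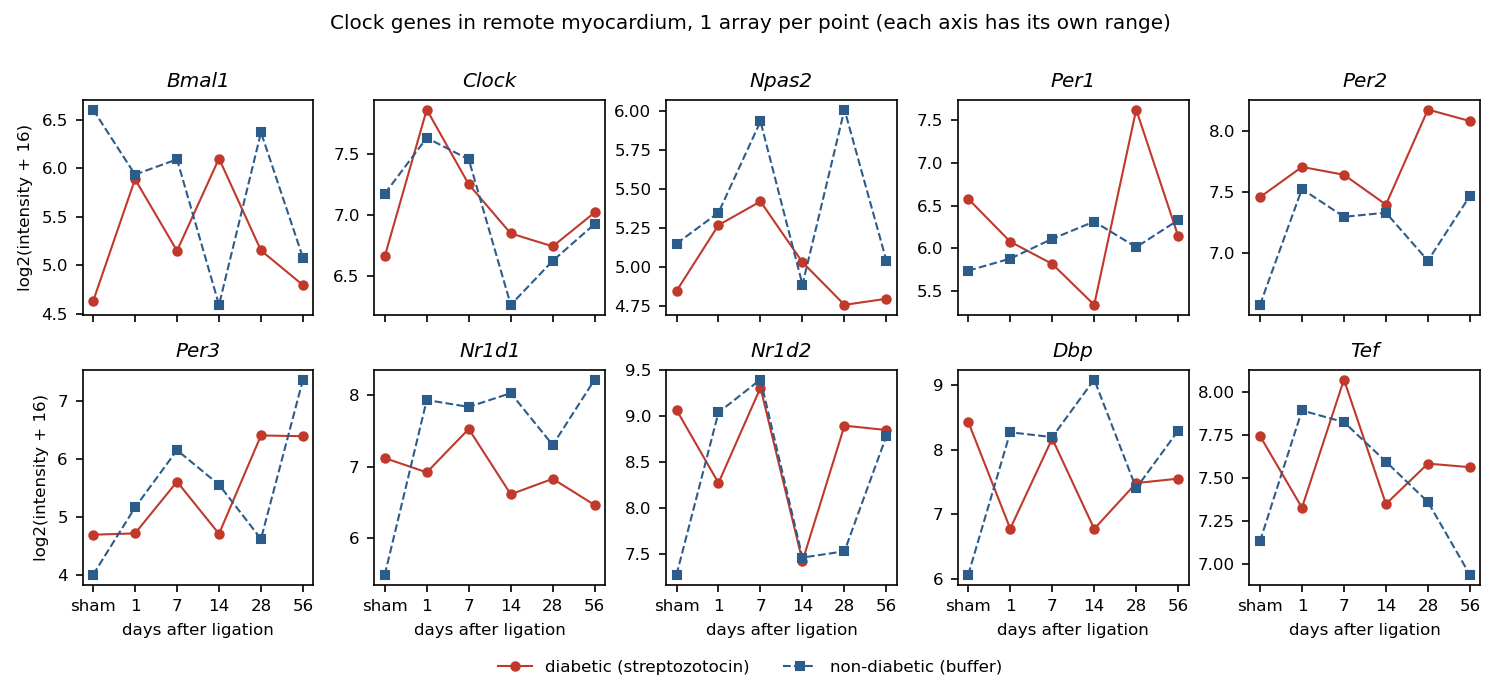
Level of the 10 clock genes (vertical axis, log2 of intensity plus 16) at sham, day 1, 7, 14, 28 and 56 (horizontal axis), with diabetic and non-diabetic arrays as separate lines and 1 pool of 3 rats per point. The lines cross in every panel but Per2; Bmal1 in sham is 4.63 on the diabetic array and 6.60 on the non-diabetic array, and Dbp is 8.43 and 6.07.

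Bmal1 read 4.63, 5.89, 5.15, 6.10, 5.15 and 4.80 on the diabetic arrays, from sham through day 1, 7, 14, 28 and 56. On the non-diabetic arrays, in the same order, Bmal1 read 6.60, 5.93, 6.09, 4.59, 6.37 and 5.08. Diabetic sham and non-diabetic day 14 were the lowest arrays and non-diabetic sham the highest, so both ends of its range lay in the non-diabetic group and the groups overlapped. The fitted difference, diabetic minus non-diabetic, was -0.49 ± 0.34 (SE, 6 pairs; limma, adjusted p = 0.645).

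Clock, the DNA-binding partner of Bmal1, read 6.66, 7.86, 7.25, 6.85, 6.74 and 7.02 on diabetic arrays and 7.17, 7.63, 7.45, 6.26, 6.62 and 6.93 on non-diabetic arrays. The 4 arrays of day 1 and day 7 lay above the other 8, the same split that the beta-actin probes gave. Another kept probe set of Clock also gave this split. The remaining kept one did not, with diabetic day 7 at 5.15 and diabetic day 56 at 5.64. On the probe set of Clock left out by the filter, diabetic day 1 and day 7 read 4.33 and 4.31, against 5.17 in diabetic sham. Npas2, which can stand in for Clock, read 4.84, 5.27, 5.42, 5.03, 4.75 and 4.79 on diabetic arrays and 5.15, 5.35, 5.94, 4.88, 6.01 and 5.04 on non-diabetic arrays. Npas2 was lower in diabetic rats in 5 of 6 pairs, and the groups overlapped. Its fitted difference was -0.38 ± 0.16 (SE; limma, adjusted p = 0.434), and that of Clock was 0.05 ± 0.16 (SE; limma, adjusted p = 0.936).

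Among the repressors, Per2 was the one clock gene of the 10 that had the same sign in every pair. It read 7.46, 7.71, 7.64, 7.40, 8.17 and 8.08 on diabetic arrays and 6.58, 7.53, 7.30, 7.33, 6.94 and 7.47 on non-diabetic arrays. Each diabetic array was above its non-diabetic partner, by 0.88, 0.18, 0.34, 0.07, 1.23 and 0.61, but the ranges of the groups overlapped. The fitted difference of Per2 was 0.55 ± 0.18 (SE; limma, adjusted p = 0.292), which did not pass the threshold. A dimmer probe set of Per2, left out by the filter, did not keep 1 sign. It differed by -0.063 at day 1, -0.25 at day 14 and -0.092 at day 28, and by 0.18 in sham, 0.31 at day 7 and 0.032 at day 56.

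Per1, which responds fast to light and hormones, read 6.58, 6.08, 5.82, 5.34, 7.62 and 6.14 on diabetic arrays and 5.74, 5.88, 6.11, 6.31, 6.01 and 6.33 on non-diabetic arrays. The diabetic arrays held both its extremes, day 28 at the top and day 14 at the bottom, while the non-diabetic arrays stayed within a narrow band. Per3, a further member of the family, read 4.69, 4.72, 5.61, 4.71, 6.40 and 6.39 on diabetic arrays and 4.00, 5.16, 6.15, 5.55, 4.62 and 7.37 on non-diabetic arrays. Both its extremes were non-diabetic, sham lowest and day 56 highest. Fitted differences were 0.20 ± 0.27 for Per1 and -0.057 ± 0.31 for Per3 (SE; limma, adjusted p = 0.834 and 0.966).

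Nr1d1 and Nr1d2 encode REV-ERB receptors, repressors of Bmal1. Nr1d1 read 7.12, 6.92, 7.53, 6.62, 6.83 and 6.46 on diabetic arrays and 5.49, 7.94, 7.84, 8.03, 7.31 and 8.22 on non-diabetic arrays. Non-diabetic sham stood below every other array, and from day 1 onward each diabetic array was below its partner. Nr1d2 read 9.07, 8.27, 9.31, 7.42, 8.90 and 8.85 on diabetic arrays and 7.27, 9.04, 9.40, 7.46, 7.53 and 8.79 on non-diabetic arrays. Both day 14 arrays of Nr1d2 were low, and so were the non-diabetic sham and day 28 arrays. Fitted differences were -0.56 ± 0.35 for Nr1d1 and 0.39 ± 0.30 for Nr1d2 (SE; limma, adjusted p = 0.608 and 0.679).

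Dbp and Tef encode PAR-domain factors that act on D-boxes. Dbp read 8.43, 6.78, 8.17, 6.78, 7.48 and 7.55 on diabetic arrays and 6.07, 8.27, 8.19, 9.08, 7.41 and 8.29 on non-diabetic arrays. Non-diabetic sham was its lowest array and non-diabetic day 14 its highest, and the groups overlapped. Tef read 7.74, 7.33, 8.07, 7.35, 7.58 and 7.56 on diabetic arrays and 7.13, 7.89, 7.82, 7.59, 7.36 and 6.94 on non-diabetic arrays, within a narrower band. Fitted differences were -0.35 ± 0.46 for Dbp and 0.15 ± 0.18 for Tef (SE; limma, adjusted p = 0.825 and 0.810).

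For diabetes the median fitted difference of the 10 genes was -0.0023, beside 0.0125 over all probe sets, with 5 genes higher and 5 lower. At an unadjusted p under 0.05 there were 2 genes, Per2 and Npas2, where 10.6% of all probe sets passed. Without the sham pair the fitted differences were -0.20 for Bmal1, -0.99 for Nr1d1, 0.11 for Nr1d2 and -0.90 for Dbp, and none passed.

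The pair differences of the members, diabetic minus non-diabetic, showed which genes turned together. In sham all 7 genes of the repressor and output arm were higher in diabetic rats, with a mean of 1.26, and all 3 activators were lower, with a mean of -0.93. At day 14 all 3 activators were higher, with a mean of 0.74, and 6 of the 7 repressor and output genes were lower, with a mean of -0.82, although Nr1d2 was lower by only a small margin (-0.04). At day 28 the arm means had the same signs as in sham, 0.83 with 6 of 7 higher and -0.78 for the activators. Single genes differed from sham, with Nr1d1 at -0.47, Dbp at 0.08 and Clock at 0.12.

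At day 1 the activator mean was 0.03 and the mean of the other arm -0.56, with 1 of 3 and 2 of 7 genes higher. Among the activators Clock was at 0.23, Bmal1 at -0.05 and Npas2 at -0.08. Both means were below 0 at day 7, at -0.55 and -0.10, and at day 56, at -0.14 and -0.34. The arm means thus had opposite signs in 4 of 6 pairs, day 1 among them through Clock alone. Against each gene's own mean over all arrays, the arms had opposite signs on 9 of 12 arrays. Whether these counts exceed those of random signs was not tested.

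**Figure D2:**
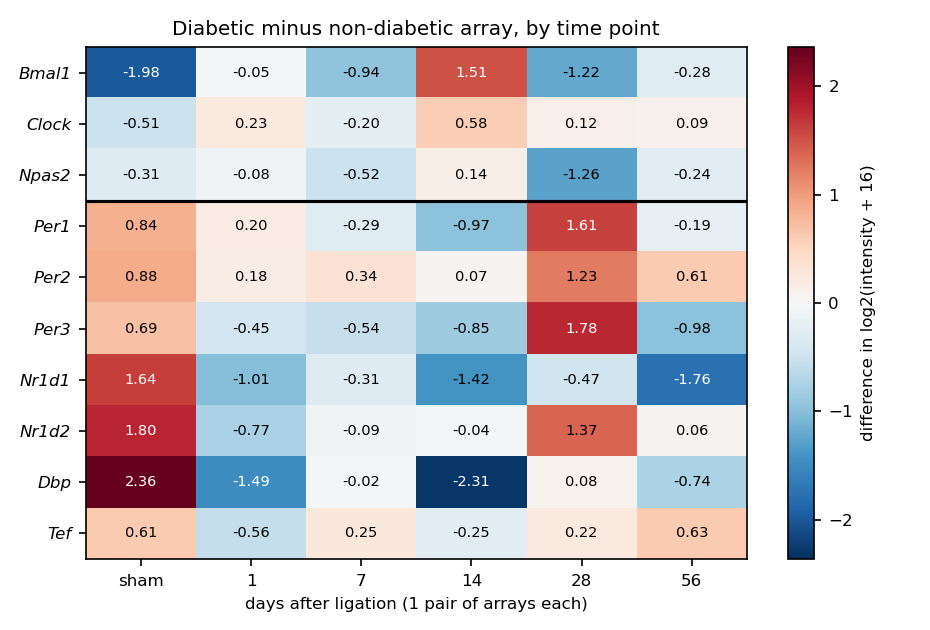
Diabetic minus non-diabetic difference (log2 units, colour and printed value) of each clock gene (rows, activator arm above the repressor and output arm) at each time point (columns). Sham and day 14 carry opposite colours in every row but Per2, with Dbp at 2.36 and -2.31.

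On single arrays the widest gap between the arms was in non-diabetic sham, where the activators averaged 0.38 above and the other 7 genes 1.10 below their means (-1.10). Diabetic sham lay the other way, with -0.55 for the activators and 0.16 for the other arm. Non-diabetic day 14 also had low activators, at -0.68, and the other arm at 0.20, against 0.07 and -0.62 on the diabetic day 14 array. Both arms were above their means on the diabetic day 7 array (0.01 and 0.31) and on the non-diabetic arrays of day 1 (0.38 and 0.25) and day 7 (0.57 and 0.41). As each array is 1 pool of unstated collection hour, hour, condition and day cannot be told apart.

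**Figure D3:**
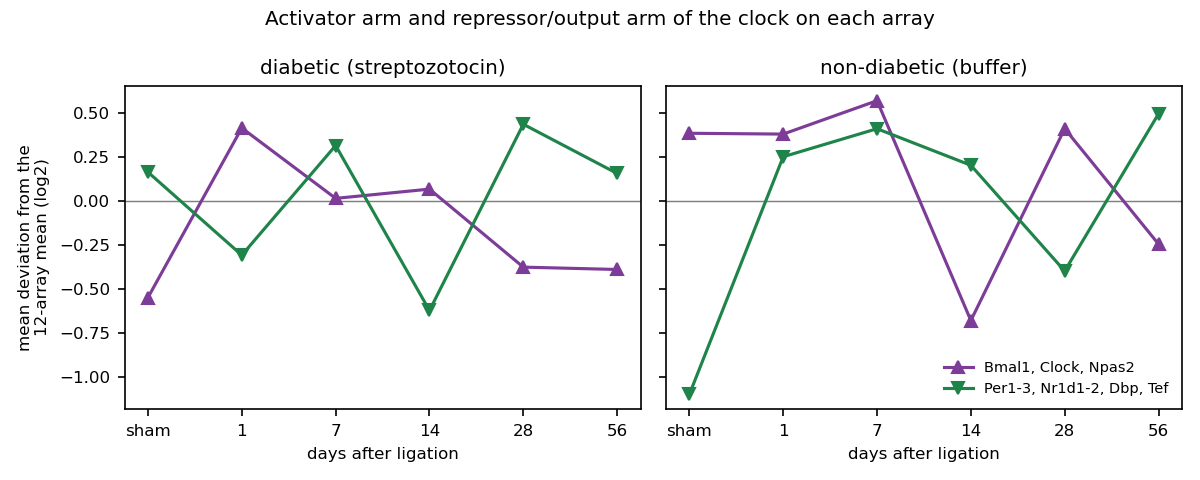
Mean deviation of the activator arm (3 genes) and of the repressor and output arm (7 genes) from each gene's mean over 12 arrays, in log2 units, on each array, diabetic arrays before non-diabetic ones. The arms lie on opposite sides of 0 on 9 of 12 arrays, with the non-diabetic sham array at 0.38 and -1.10.

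Bmal1 was set against each of the other 9 members, over 12 arrays and over the 6 pair differences, which take out what both arrays of a time point share. Over the pairs Dbp followed Bmal1 in inverse order, with r = -0.93 and rho = -1 (exact permutation test of pairings, two-sided, p = 0.00278 for each, the smallest that 6 pairs can give; adjusted over 9 members, 0.025). With p counted instead from the absolute r, a choice made after seeing the data, p for r was 0.00972 by exact permutation and 0.0875 adjusted, so the call for r rested on that convention. Without the sham and day 14 pairs r was -0.96 over the remaining 4.

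Clock followed Bmal1 in the same direction over the 6 pairs with r = 0.91 and rho = 0.83 (exact permutation p = 0.0167 and 0.0583; adjusted 0.075 and 0.131), and with r = 0.52 without the sham and day 14 pairs. Signs over the pairs were positive for Clock and Npas2 and negative for all 7 genes of the other arm. In the members other than Dbp and Clock the adjusted exact permutation p for r was 0.115 to 0.211. Among 10622 other genes, 0.254% had an r over the pairs as low as Dbp or lower. For the other negative members this share ran from 2.57% (Nr1d1) to 7.52% (Tef). An r as high as that of Clock or higher was held by 1.16% of genes, and for Npas2 by 18.4%. Over 12 arrays Dbp gave r = -0.68 and rho = -0.76 (permutation test, p = 0.0155 and 0.0053; adjusted 0.0941 and 0.0477). It was r = -0.43 without the non-diabetic sham and day 14 arrays, the 2 farthest from the median of Bmal1. Over the 8 arrays outside day 1 and day 7, r was -0.84; for the 4 arrays of those days alone no r was computed, and the r over 4 pairs are given as values only.

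**Figure D4:**
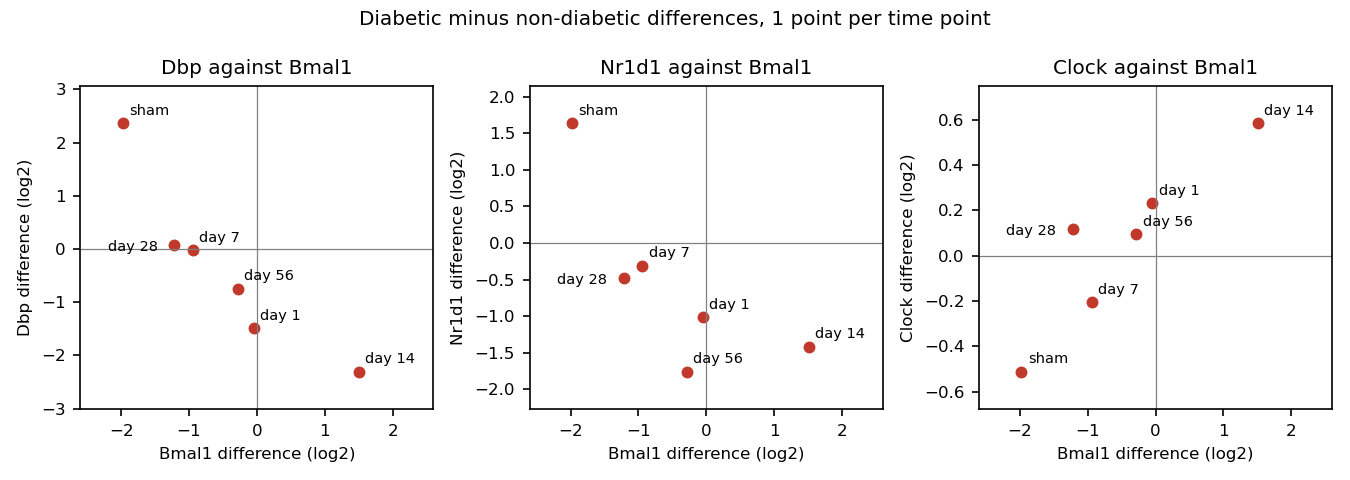
Diabetic minus non-diabetic difference of Dbp, Nr1d1 and Clock (vertical axes, log2 units) against that of Bmal1 (horizontal axis, log2 units), 1 point per time point. Dbp runs downward without a break from sham (-1.98, 2.36) to day 14 (1.51, -2.31), and Clock runs upward.

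The genes most like Bmal1 over 12 arrays, by Pearson's r among 10622 other genes, were Pfn2 (0.91), Trim16 (0.82), Cep44 (0.82), Nfatc3 (0.80) and Medag (0.80). The least like were Car11 (-0.82), Ybx2 (-0.81), Usp2 (-0.78), Fgfrl1 (-0.78) and Rasd2 (-0.77). Usp2, a deubiquitinase listed among the other clock genes, differed between diabetic and non-diabetic arrays by 0.75 in sham, -0.72 at day 1, 0.09 at day 7, -0.98 at day 14, 1.13 at day 28 and -0.40 at day 56. These values are a description of 12 arrays that share their pools with Bmal1.

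Some summed markers of other cell types varied with Bmal1. The neutrophil sum (3 of 4 markers on the array, none at 0) ranged over 36.5 to 1871 on diabetic and 41.2 to 1113 on non-diabetic arrays. Its r with Bmal1 was 0.67 over 12 arrays and 0.79 over the 6 pair differences. Over the pairs r was -0.85, and over 12 arrays -0.15, for the endothelial sum (4 of 5 markers on the array, none at 0; 1384 to 2149 on diabetic and 1560 to 2701 on non-diabetic arrays). It was 0.78 over the pairs and 0.29 over 12 arrays for the fibroblast sum (6 of 6, none at 0; 5354 to 18619 on diabetic and 5335 to 19218 on non-diabetic arrays). For the macrophage sum it was 0.52 and 0.53, for the cardiomyocyte sum 0.04 and -0.13, and for the atrial sum -0.19 and -0.32. Their part in the clock values was not tested.

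Against sham, no clock gene passed the adjusted threshold on any day. All probe sets passed at 7.47% on day 1, 7.65% on day 7 and 0% on each of day 14, 28 and 56 (limma). At an unadjusted p under 0.05 the members numbered 1 at day 1, where 25.5% of all probe sets passed, and 4 at day 7, also beside 25.5%. They numbered 0 at day 14 and day 28, beside 11.7% and 3.62%, and 2 at day 56, beside 16.4%.

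Per3 had the largest of these differences in the 10 genes, 2.53 ± 0.53 at day 56 and 1.53 ± 0.53 at day 7 (SE, day minus sham; limma, adjusted p = 0.116 and 0.102). It was above sham on all 5 days in both conditions, but on diabetic arrays by only 0.023 at day 1 and 0.016 at day 14. Its sham value was the lowest of each condition. Per3 was dim, with an intensity of 0.0062 on the non-diabetic sham array and below the offset of 16 on 5 of 12 arrays, so that offset sets the size of its differences. With an offset of 1 the differences were 4.95 at day 56 and 3.72 at day 7, and with an offset of 64 they were 1.29 and 0.64, none of them past the threshold. A dimmer probe set of Per3, left out by the filter, stayed within 4.33 to 4.74 over the 12 arrays. Clock at day 1 was 0.83 ± 0.28 above sham (SE; limma, adjusted p = 0.0904), beside the beta-actin split given above. Nr1d1 and Nr1d2 at day 7 were 1.38 ± 0.61 and 1.19 ± 0.51 above sham (SE; limma, adjusted p = 0.185 and 0.177).

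Over all 6 time points together, 18.6% of all probe sets passed the adjusted threshold and 0 of 10 clock genes did (limma moderated F test). Of the probe sets not used to represent a gene, 1 of Tef passed (limma, adjusted p = 0.0444). Per3 lay at an adjusted p of 0.0505 and Clock at 0.0551, and the others between 0.119 and 0.857. At an unadjusted p under 0.05 there were 3, Per3, Clock and Nr1d2, where 40.2% of all probe sets passed. Without the day 28 pair all 3 passed (adjusted p = 0.00116, 0.0313 and 0.0365), and Per3 also passed at day 7 and day 56 (adjusted p = 0.00899 and 0.00137). In that fit 41.9% of all probe sets passed over time, 15.3% at day 7 and 4.12% at day 56. Npas2 was then below the filter, so 9 members were tested.

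For Bmal1 and Dbp the ligated arrays lay on opposite sides of sham in the 2 conditions. Bmal1 was above sham on 5 of 5 diabetic days and on 0 of 5 non-diabetic days, by means of 0.79 and -0.99. Dbp was above sham on 0 of 5 diabetic and 5 of 5 non-diabetic days, by means of -1.08 and 2.18. Nr1d1 was above sham on 1 of 5 diabetic and 5 of 5 non-diabetic days, by means of -0.25 and 2.38. No share over all probe sets is set beside these counts, so they are not read as a trait of these genes.

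The interaction of diabetes with ligation was 1.78 ± 0.76 for Bmal1, -3.26 ± 0.78 for Dbp, -2.63 ± 0.56 for Nr1d1 and -1.69 ± 0.66 for Nr1d2 (SE). These 4 genes had an unadjusted p under 0.05, where 0.671% of all probe sets did. No clock gene and 0% of all probe sets passed after adjustment (limma, adjusted p = 1.00 for each of the 4). Bmal1 was below the offset of 16 on 3 of 12 arrays, diabetic sham among them, and its interaction was 2.85 with an offset of 1 and 0.89 with an offset of 64. Each of these values rests on the single sham pair, since every day is set against the same 1 diabetic and 1 non-diabetic sham array.

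Once diabetes and time point were fitted, the residual SD of the clock genes had a median of 0.669, beside 0.254 over all probe sets kept, and all 10 lay above that median. Dbp had a residual SD of 1.14, above 99.8% of probe sets, Nr1d1 0.852 and Bmal1 0.847. In all, 6 of 10 members lay above 90% of probe sets. This spread enters the error of every fitted difference above.

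**Figure D5:**
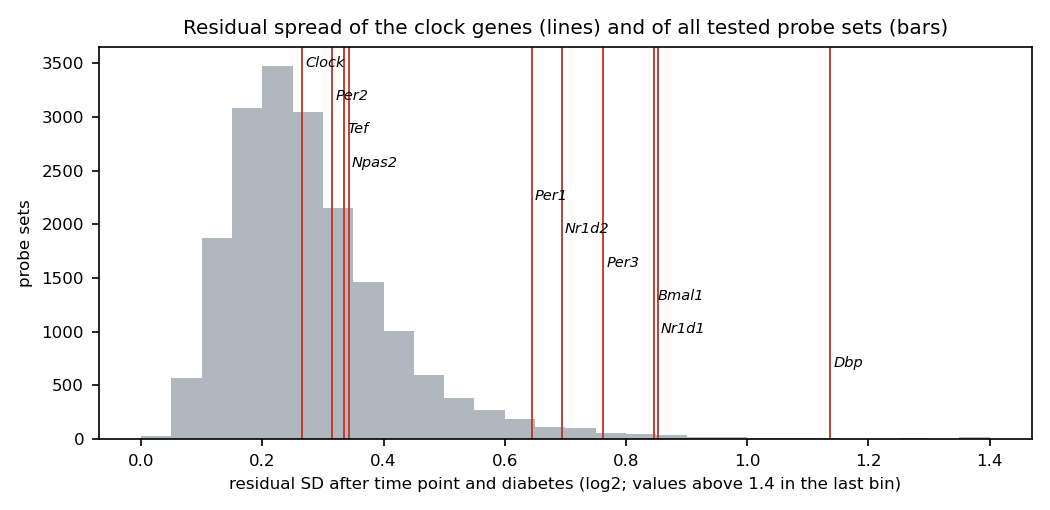
Histogram of the residual SD (horizontal axis, log2 units) of all probe sets kept (vertical axis, number of probe sets), with the clock genes marked at their own values. All 10 clock genes lie right of the median of 0.254, Dbp farthest at 1.14.

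Further clock genes came from a list of 18, of which 14 were on the array and 12 tested; the others were not analysed here. For diabetes 0 passed after adjustment and 2 at an unadjusted p under 0.05 (limma), beside 0.376% and 10.6% of all probe sets. Bhlhe40, a repressor of E-box genes, rose by 1.48 ± 0.28 at day 1 and by 1.49 ± 0.28 at day 7 against sham (SE; limma, adjusted p = 0.0123 and 0.0114). Hlf, the third PAR-domain factor beside Dbp and Tef, was lower at day 7, by -1.27 ± 0.35 (SE; limma, adjusted p = 0.0481). Over time as a whole 2 of 12 passed, Hlf and Bhlhe40 (limma, adjusted p = 0.0162 and 0.0267), beside 18.6% of all probe sets.

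Genes known as clock outputs in heart numbered 9, with 8 tested. Bdh1, a ketone body enzyme, fell in diabetic rats, with a difference of -1.75 ± 0.28 (SE; limma, adjusted p = 0.0240). Kcnip2 and Kcnh2, a potassium channel subunit and channel, fell at day 1 against sham, with differences of -1.81 and -1.37 (limma, adjusted p = 0.00452 and 0.0350), and both also passed over time (adjusted p = 0.00767 and 0.0411). Of 8 glucocorticoid-responsive genes 6 were tested, and for diabetes 0 passed after adjustment and 2 at an unadjusted p under 0.05 (limma), beside 0.376% and 10.6% of all probe sets. Over time 4 of 6 passed, Mt2A, Tsc22d3, Fkbp5 and Cdkn1a (limma, adjusted p = 0.00384, 0.0413, 0.0432 and 0.0469), beside 18.6% of all probe sets. At day 1 the metallothionein Mt2A rose by 3.19 and Tsc22d3, a glucocorticoid-induced leucine zipper, fell, with a difference of -1.01 (limma, adjusted p = 0.00246 and 0.0324). These calls at day 1 and day 7 lie on the arrays whose beta-actin probes stood apart, and the part of that split in them was not tested.

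Genes with several probe sets gave a check within the arrays. The 3 kept probe sets of Nr1d2 were all higher in diabetic sham, by 1.22 to 1.80, and all higher at day 28. They differed in sign at day 1, where 1 was at 0.04 and the others at -0.76 and -0.77, and at day 14, where 1 was at 0.28 and the others at -0.0029 and -0.039. The 3 kept probe sets of Clock were all lower in diabetic sham and all higher at day 14, by 0.58, 0.69 and 0.91. The 2 kept probe sets of Tef had the same sign in sham and at days 1, 14, 28 and 56, and opposite signs at day 7.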

How the data were processed

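RNA of the remote left ventricular wall was measured on 12 rat expression arrays, each a pool of 3 rats, per the labels' descriptions. For each probe set and array the authors deposited a linear intensity, made with Affymetrix Expression Console and PLIER per the submitters' processing notes. Neither versions nor scaling are stated there. Groups came from the labels, with the protocol followed where the tissue label of the sham arrays speaks of an infarct.

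Values were log2 of the intensity plus 16, and probe sets with a mean above the 40th percentile (18625 of 31042) were kept. With limma 3.58.1 in R 4.3.3, the time point (6 levels) and diabetes were fitted to all 12 arrays, leaving 5 residual degrees of freedom. Benjamini-Hochberg adjustment ran over all probe sets kept, with a threshold of 0.05. The tests were checked on simulated data. The number of arrays limits the precision, and no condition had replicate pools at a time point. The residual spread behind the limma p-values therefore mixes differences between pools with any change of the diabetic minus non-diabetic difference over time points. These parts cannot be told apart here. Named genes were all 10 members, listed genes that passed (up to 4 per list), and the 5 most and 5 least like Bmal1. Other offsets, filters, scalings, variance models, probe sets and left-out pairs were tried. The members, lists and tests were chosen with earlier results of these data known.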

Additional observations from a re-analysis of the deposited data

Results flagged for a closer look

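Bmal1 and Dbp are listed because every ligated array of one condition lay above its sham array and every ligated array of the other lay below. No share of all probe sets with this pattern was computed, so it is not read as a trait of these genes. For Bmal1 the mean of 5 days minus sham, diabetic minus non-diabetic, was 1.78, from 0.79 in diabetic and -0.99 in non-diabetic rats. It was 2.85 with an offset of 1 and 0.89 with an offset of 64. For Dbp it was -3.26, from -1.08 in diabetic and 2.18 in non-diabetic rats. The difference as a pattern over single arrays was not tested; the limma interaction of diabetes with ligation gave an adjusted p of 1.00 for both. Each day is set against 1 sham array per condition.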

How the results depend on the processing

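The time point in the model already pairs the diabetic with the non-diabetic array. With 1 pool per condition and time point, the day 28 pair decided several counts: without it 1 clock gene passed at day 7, 1 at day 56 and 3 over time, where none did with it, beside 15.3%, 4.12% and 41.9% of all probe sets in that fit. The count over time was also 2 with an offset of 64, 1 with no filter, 2 with array medians set equal and 1 with no trend. For the correlation with Bmal1, 2 members passed over 12 arrays after quantile normalization, and over the 6 pairs 2 passed with an offset of 1 and 0 with p from the absolute r, the last added after seeing the data. Of the values of single genes, 718 kept direction and call, 5 came to pass and 20 changed sign, none of those 20 past the threshold. The 718 overstate how steady the values are, since a day minus sham difference is the same whichever other pair is left out. It is also unchanged with no filter or no trend, so in those settings only its adjusted p could move. For diabetes, leaving out 1 pair moved 8 of the 10 fitted differences by over 1.5 times, without bringing any past the threshold: they ranged over -0.89 to -0.20 for Bmal1, -0.99 to -0.32 for Nr1d1, 0.11 to 0.62 for Nr1d2, -0.90 to 0.038 for Dbp, 0.054 to 0.29 for Tef, -0.055 to 0.16 for Clock, -0.083 to 0.43 for Per1 and -0.42 to 0.10 for Per3 (kept by the filter in 5 of 6 fits). For diabetes, Clock became -0.055 and Dbp 0.038 without day 14, Per1 -0.083 without day 28, and Per3 0.34 with an offset of 1 and 0.022, 0.041, 0.10 and 0.16 without day 1, day 7, day 14, and days 1 and 7. Against sham at day 1, other probe sets gave Nr1d2 -0.70 and Tef -0.38. At day 7 Bmal1 was -0.062 with an offset of 64, -0.12 after quantile normalization and -0.10 with medians equal, and other probe sets gave Nr1d2 -0.19 and Tef -0.042. At day 28 other probe sets gave Clock 0.037 and 0.10, and Tef was -0.019 after quantile normalization and -0.0075 with medians equal. At day 56 another Tef probe set gave 0.70. Over all probe sets, passing numbers ranged over 6 to 92 for diabetes (70 as reported), 917 to 2725 at day 1 (1392), 1055 to 2857 at day 7 (1424), 0 to 48 at day 14 (0), 0 to 767 at day 56 (0), 0 to 7808 over time (3470) and 0 to 1 for the interaction (0). The causes were not tested. Dim probe sets such as Npas2 lie close to background, which limits how far their differences can be read.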
